A study of Homo sapiens with 4 samples.

Results

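The sodium-potassium pump is an ATPase of the plasma membrane, and 7 genes of its beta subunits and FXYD regulators were followed across 4 HEK293 arrays. The genes are the beta subunits ATP1B1, ATP1B2 and ATP1B3 and the regulators FXYD2, FXYD5, FXYD6 and FXYD7, of 18774 genes measured in all. They were taken by family membership, each with its brightest probe. FXYD6 had been picked for its higher signal with siRNA and ATP1B1 for its lower signal with control RNA, so both are described without a test. In the study, HEK293 cells, a human embryonic kidney line, received MIF siRNA against the cytokine gene MIF (2 arrays, 1# and 2#) or a control RNA (1 array) with a lipid transfection reagent, or were left untreated (1 array), and total RNA was taken at 24 h. Doses of 50 and 100 pmol/ml are named for the siRNA in the series description. The label of 2# gives 50 pmol/ml and that of 1# gives no dose, and the labels do not say whether 1# and 2# share a siRNA sequence or come from separate cultures. Differences of dose or siRNA therefore count as spread, and p-values measure only the spread between these arrays.

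The pump exports sodium and imports potassium at the cost of ATP, and kidney epithelium depends on it for salt transport. Its catalytic alpha subunit leaves the endoplasmic reticulum only when paired with a glycosylated beta subunit, which also takes part in contacts between cells. Small single-span FXYD proteins bind the pair and tune its affinity for ions or its turnover in a tissue-dependent way. No probe carried the name of an alpha subunit gene in the annotation used, so the alpha subunits were not analysed here.

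The starts of the genes whose signals set the pattern below are shown as reference sequence, to place FXYD6, ATP1B2 and ATP1B1 beside each other. RefSeq windows on GRCh38.p14 matched 5 of the 7 genes, and the 250 bases upstream of each annotated start are printed 5′ to 3′ on the gene's strand. FXYD6 lies on chromosome 11 from 117836981 to 117877430 and has 2 annotated starts. Its upstream windows are chr11:117877431-117877680 (window 1) and chr11:117876659-117876908 (window 2), both on the minus strand. Those of ATP1B2 and ATP1B1 are chr17:7646377-7646626 and chr1:169106440-169106689, both on the plus strand. Capitals mark the GC box GGGCGG, the CCAAT box CCAAT and the E-box CACGTG, searched on both strands.
FXYD6 window 1: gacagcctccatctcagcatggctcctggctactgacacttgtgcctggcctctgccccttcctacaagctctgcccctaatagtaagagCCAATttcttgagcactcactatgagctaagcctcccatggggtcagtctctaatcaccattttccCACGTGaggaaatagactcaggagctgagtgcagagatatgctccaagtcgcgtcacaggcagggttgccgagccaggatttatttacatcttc
FXYD6 window 2: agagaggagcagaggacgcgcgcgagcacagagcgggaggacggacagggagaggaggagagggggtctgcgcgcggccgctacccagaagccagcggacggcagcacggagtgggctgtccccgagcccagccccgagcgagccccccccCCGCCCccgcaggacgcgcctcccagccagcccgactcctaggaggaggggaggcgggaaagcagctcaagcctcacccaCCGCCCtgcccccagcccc
ATP1B2: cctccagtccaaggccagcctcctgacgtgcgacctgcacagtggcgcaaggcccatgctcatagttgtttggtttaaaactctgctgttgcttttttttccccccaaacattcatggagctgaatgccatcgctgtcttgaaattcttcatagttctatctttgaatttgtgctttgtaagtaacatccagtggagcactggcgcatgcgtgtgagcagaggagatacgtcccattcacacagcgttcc
ATP1B1: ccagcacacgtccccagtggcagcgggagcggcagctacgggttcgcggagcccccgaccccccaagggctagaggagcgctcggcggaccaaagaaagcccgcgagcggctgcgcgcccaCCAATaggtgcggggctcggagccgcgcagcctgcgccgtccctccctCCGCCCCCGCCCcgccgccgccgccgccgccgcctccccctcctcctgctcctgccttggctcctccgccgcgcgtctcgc
Window 1 of FXYD6 held 1 CCAAT box and 1 E-box at 52.0% G and C, and window 2 held 2 GC boxes at 74.8%. ATP1B2 held none of these letters at 49.2% G and C, while ATP1B1 held 2 GC boxes and 1 CCAAT box at 77.6%. No marked matches overlap. Over all 35116 windows of the same length, 42.6% held a GC box, 32% a CCAAT box and 6.34% an E-box. TATAAA (10.7% of windows), TGACGTCA (1.65%) and GTAAACA (2.98%) were searched too and occurred in none of the printed windows. A match describes letters only, and which start these cells use was not measured.

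Each array held 48701 probes, with deposited median signals of 71.9 to 78.5. After quantile normalization, genes whose mean signal exceeded 75.6, the median over all probes, were kept, which left 13755 genes. Of the 7 pump genes, 6 were kept, FXYD2 narrowly at a mean of 76.0, and FXYD7 fell just short at 75.5. MIF, the siRNA target, had signals of 11614 in 1# and 17040 in 2#, against 22463 for control RNA and 21908 for untreated cells. Of 10 marker genes listed for HEK293 cells, 8 exceeded the probe median, 1 (PAX2) did not and 1 had no named probe, with a summed signal of 33194 to 40384 per array. KRT18 (12269 to 18466), KRT8 (8931 to 11862) and VIM (5965 to 8792) held most of this sum, which says little about the dimmer markers. NEFM (105 to 110) and INA (89.7 to 118) were dim. LHX1 (179 to 190) lay below VWF (244 to 298), which was listed for other cell types. EYA1 had 222 in 1# and 152 in 2#, against 104 for control RNA and 112 for untreated cells. Of 10 markers of other cell types, 6 exceeded the probe median, 2 did not (CD3E and ALB) and 2 had no named probe, with a summed signal of 1102 to 1157. Within that sum, the fibroblast collagen genes lay on opposite sides of the controls in the siRNA arrays. COL3A1 had 257 in 1# and 134 in 2#, against 105 for control RNA and 105 for untreated cells, and COL1A1 had 232 in 1# and 304 in 2#, against 323 for control RNA and 341 for untreated cells. Their part in the results below was not tested.

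FXYD6 encodes phosphohippolin, an FXYD protein known from rodent brain and inner ear. Its probe, ILMN_1768812, gave normalized signals of 1206 in MIF siRNA 1# and 642 in 2#, against 285 for control RNA and 283 for untreated cells. Both siRNA arrays lay above both control arrays without overlap, as for 32.6% of all genes kept. The control arrays were nearly level with each other. In bulk RNA, a change within every cell cannot be told apart from a change in the share of cells that hold the transcript. Over control RNA, FXYD6 reached 4.23-fold in 1# and 2.25-fold in 2#. Against untreated cells the folds were 4.26 in 1# and 2.27 in 2#. The mean log2 signal in MIF siRNA was 9.78 ± 0.64 (SD, n = 2), 1.63 above the mean of both control arrays. FXYD6 stood at rank 4 of 13755 genes by its smallest pair difference, 1.17 on the log2 scale. This is the measure it had been picked on, so it is a description.

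The FXYD6 signal was 1.88-fold higher in 1# than in 2#. MIF itself was lower in 1# than in 2#, at 0.682 of the signal. With 2 arrays that also may differ in dose, no relation between MIF and FXYD6 can be tested. The signals as deposited, before any normalization between arrays, were 1317 in 1# and 683 in 2#, against 264 for control RNA and 251 for untreated cells. FXYD6 has 1 probe on this array, so no second probe bears on its value. The reference also holds a readthrough gene, FXYD6-FXYD2, which spans from within FXYD6 to the end of FXYD2 on chromosome 11. Probe positions were not available here, so transcripts of FXYD6 and of the readthrough gene cannot be told apart. Both FXYD2 probes stayed near or below the probe median in every array.

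**Figure D1:**
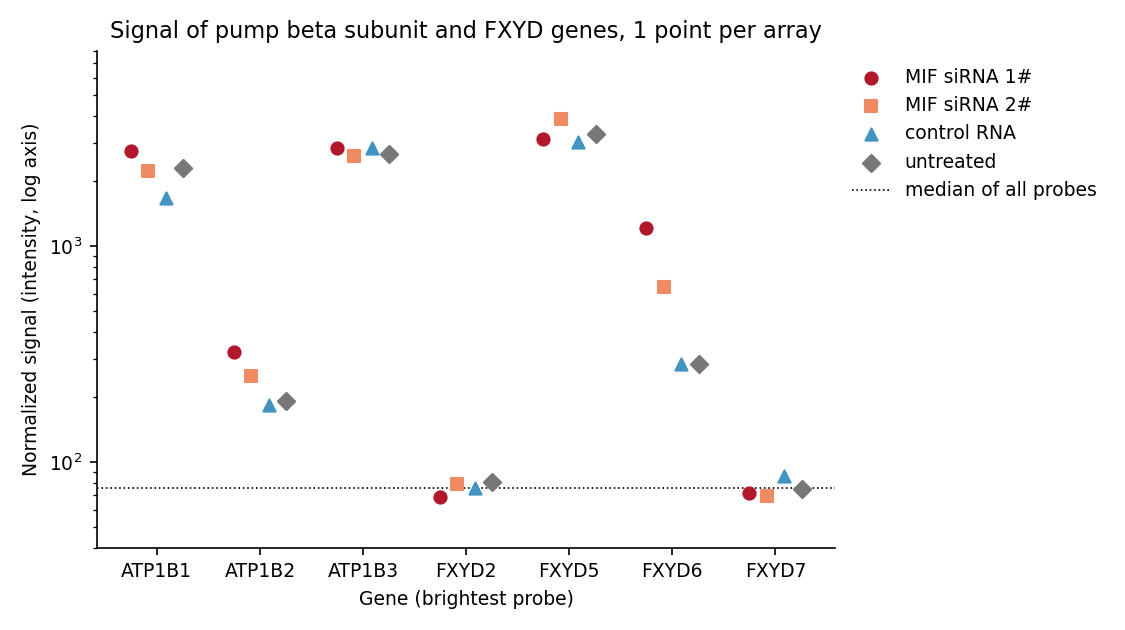
Normalized signal (log axis) of the brightest probe of each gene, 1 point per array, with the MIF siRNA arrays left of control RNA and untreated cells and a dotted line at the median of all probes (75.6). FXYD6 stands at 1206 and 642 in the siRNA arrays against 285 and 283, while FXYD2 and FXYD7 lie around the dotted line in all 4 arrays.

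ATP1B2 encodes the beta subunit first described, in mouse, as an adhesion molecule on glia. Its signals were 322 in 1# and 251 in 2#, against 183 for control RNA and 191 for untreated cells. The siRNA arrays did not overlap with the control arrays here either. The folds over control RNA were 1.76 in 1# and 1.37 in 2#, and those over untreated cells 1.69 in 1# and 1.31 in 2#. Against both control arrays ATP1B2 differed by 0.60 ± 0.13 on the log2 scale (SE). Both siRNA arrays stood above both controls, as they did for 32.6% of all genes kept. The limma adjusted p of ATP1B2, 0.0568, did not pass 0.05. Its unadjusted p was 0.00344, and 29.7% of all genes kept had an unadjusted p under 0.05. On group means, ATP1B2 stood 0.64 ± 0.19 above control RNA (SE, limma adjusted p 0.253) and 0.57 ± 0.19 above untreated cells (SE, limma adjusted p 0.380). Control RNA minus untreated was -0.061. Over other settings of the fit against both controls that kept both siRNA arrays, the limma adjusted p of ATP1B2 was at most 0.0602. It passed at 0.0366 with arrays set to 1 common median, where 1581 of 13758 genes were called. With a stricter filter on dim probes it passed at 0.0444, where 927 of 9224 genes were called. With an intensity trend in the variance it passed at 0.0411, where 1007 of 13755 genes were called. In each of these settings many other genes thus passed too, while 0 did in the main fit. The log2 difference of ATP1B2 from both controls was 0.79 without 2# and 0.42 without 1#.

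ATP1B1 encodes the most widely used beta subunit, the usual partner of the pump in kidney epithelium. Its brightest probe, ILMN_1658071, gave 2744 in 1# and 2213 in 2#, against 1663 for control RNA and 2304 for untreated cells. Control RNA was the lowest of the 4 arrays, as it was for 29.3% of all genes kept, and untreated cells lay between the siRNA arrays. Control RNA minus untreated was -0.47 on the log2 scale, the value it had been picked on and rank 11 of 13755 genes from the lowest. Of all genes kept, 0.276% were at least 1.3-fold lower in control RNA than in untreated cells and 0.632% at least 1.3-fold higher. At 1.5-fold these shares were 0.0291% lower and 0.0654% higher, and ATP1B1 was not among them. Those were 4 genes lower and 9 higher, and 0 lower and 13 higher when arrays were set to 1 common median. Array 1# reached 1.65-fold of control RNA and 1.19-fold of untreated cells, and 2# reached 1.33-fold of control RNA and 0.960-fold of untreated cells.

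The second ATP1B1 probe, ILMN_1736862, gave another order. Its signals were 1259 in 1# and 889.8 in 2#, against 1051 for control RNA and 849.5 for untreated cells. Here control RNA was 0.31 above untreated cells on the log2 scale, and it lay between the siRNA arrays. The lower signal of ATP1B1 with control RNA thus rests on 1 of its 2 probes, and the sign turns on the other. With the mean of both probes, control RNA minus untreated was -0.081. Both probes were higher in 1# than in 2# and than in untreated cells.

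ATP1B3 encodes the beta subunit also known as CD298. Its brightest probe gave 2848 in 1# and 2613 in 2#, against 2849.9 for control RNA and 2656 for untreated cells. The 4 arrays overlapped, and the difference from both controls was -0.012 ± 0.094 (SE, log2, limma adjusted p 0.951). Of its 3 other probes, ILMN_1783304 gave 953 in 1# and 1005 in 2#, against 1165 for control RNA and 1083 for untreated cells. ILMN_1759628 gave 267 in 1# and 256 in 2#, against 327 for control RNA and 328 for untreated cells. In both of these probes the siRNA arrays lay below both controls, with log2 differences of -0.20 and -0.33, unlike in the brightest one. By their brightest probes, 28.7% of all genes kept were lower in this way. The last probe was below the probe median. With the mean of all probes the difference was -0.11, with a limma adjusted p of 0.376.

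**Figure D2:**
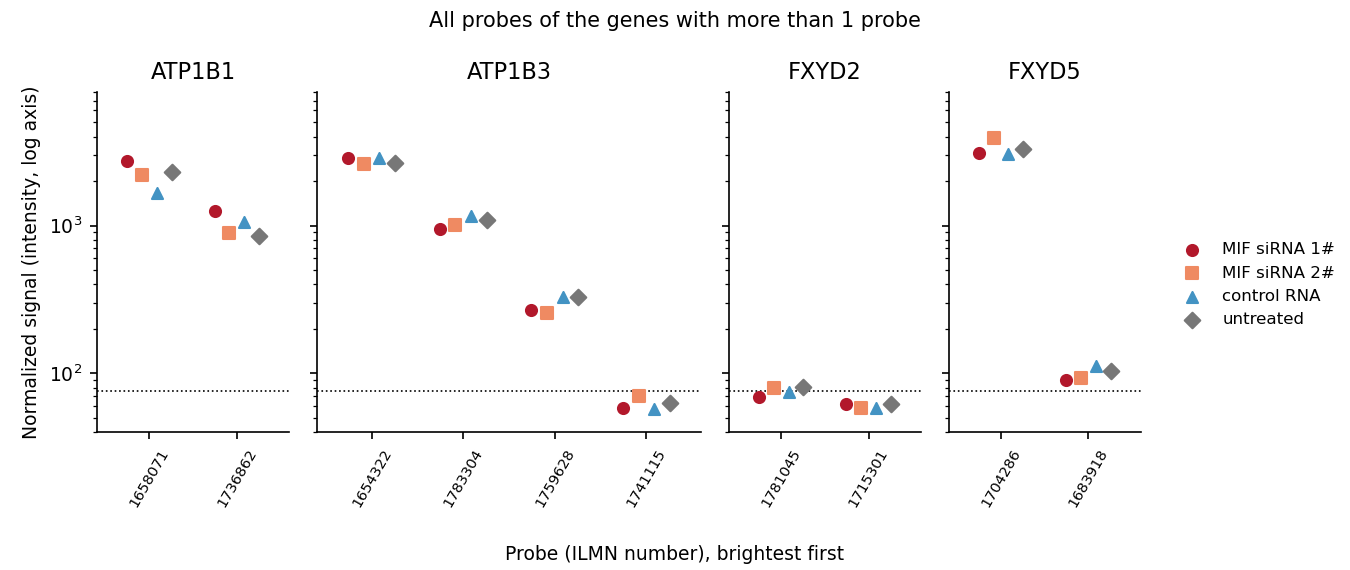
Normalized signal (log axis) of every probe of the genes with more than 1 probe, brightest first, with the siRNA arrays left of control RNA and untreated cells. In ATP1B1 the control RNA point is the lowest of the brightest probe but lies above untreated cells in the second, and the probes of ATP1B3 next in brightness have both siRNA arrays below both controls.

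FXYD5 encodes dysadherin, an FXYD protein that raises pump turnover and is known for lowering cell adhesion. Its brightest probe gave 3111 in 1# and 3881 in 2#, against 3033 for control RNA and 3290.2 for untreated cells. Here 2# was the highest array, and 1# lay between the controls. The difference from both controls was 0.14 ± 0.13 (SE, log2, limma adjusted p 0.526). The second FXYD5 probe, ILMN_1683918, was dim, with 90.4 in 1# and 93.7 in 2#, against 111 for control RNA and 105 for untreated cells. It had both siRNA arrays below both controls, as 28.7% of all genes kept had by their brightest probes. With the mean of both FXYD5 probes the sign turned, to -0.046 (limma adjusted p 0.792).

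FXYD2, the gamma subunit of the kidney pump, which lowers its affinity for sodium, gave 68.9 in 1# and 79.2 in 2#, against 75.3 for control RNA and 80.7 for untreated cells. These values overlapped and lay close to the probe median, with a log2 difference from both controls of -0.078 ± 0.10 (SE, limma adjusted p 0.669). FXYD7, a regulator known from rodent brain, gave 71.8 in 1# and 69.6 in 2#, against 85.8 for control RNA and 74.8 for untreated cells. Both siRNA arrays were the lower ones, as for 28.7% of all genes kept, but FXYD7 did not pass the filter and was not tested.

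By the pair rule, 1 of the 6 pump genes kept, FXYD6, was at least 1.5-fold higher in each of the 4 siRNA-to-control pairs, beside 0.742% of all genes kept. None was 1.5-fold lower, beside 0.4%. FXYD6 was picked on this contrast, so its count adds nothing. Over all genes the rule gave 102 higher and 55 lower, and 238 higher and 24 lower when arrays were set to 1 common median. Without a fold, FXYD6 and ATP1B2 were higher in all 4 pairs (2 of 6), while 32.6% of all genes were, and 0 of 6 were lower, against 28.7%. The other 4 genes had mixed signs. Of the 4 genes kept that were not picked on their values (ATP1B2, ATP1B3, FXYD2 and FXYD5), limma called 0 against both control arrays, beside 0% of all genes. At an unadjusted p under 0.05 these counts were 1, ATP1B2, and 4090. The smallest limma adjusted p of any gene against both control arrays was 0.0501. The fits on group means, against control RNA, against untreated cells and of control RNA against untreated cells, also called 0%.

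**Figure D3:**
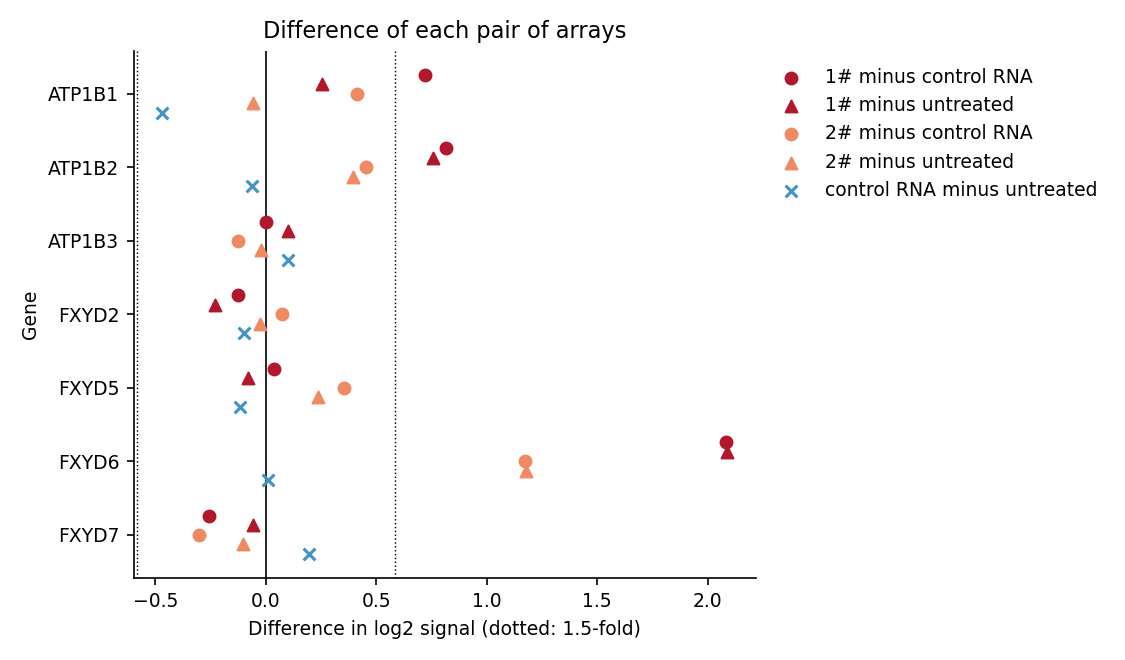
Difference in log2 signal for each of the 4 siRNA-to-control pairs of arrays, and for control RNA minus untreated, with dotted lines at 1.5-fold. FXYD6 has its 4 siRNA pairs between 1.17 and 2.09, ATP1B2 between 0.39 and 0.82, and ATP1B1 has its control RNA point at -0.47.

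**Figure D4:**
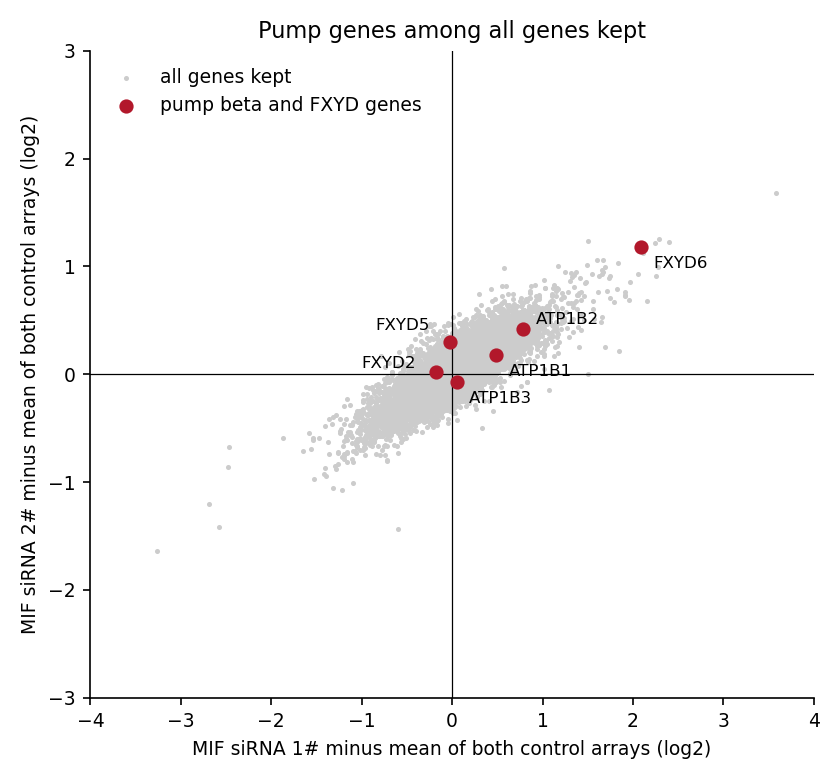
Log2 difference of 1# (horizontal) and of 2# (vertical) from the mean of both control arrays for all 13755 genes kept, with the 6 pump genes kept in red. Both axes share the same control arrays, and FXYD6 lies at 2.09 and 1.18 near the upper edge of the cloud.

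The genes with profiles most like those of FXYD6 and ATP1B1 were ranked by the root mean square distance of centred log2 values over the 4 arrays. Nearest to FXYD6 was AKR1C3, a steroid-converting aldo-keto reductase, at 0.045, with signals of 834 in 1# and 421 in 2#, against 201 for control RNA and 186 for untreated cells. FAXDC2 (0.069), the zinc finger gene ZNF503 (0.079), the rhomboid-like gene RHBDL3 (0.10) and BMF, a proapoptotic BH3-only gene (0.14), followed. Nearest to the brightest probe of ATP1B1 were MAN2A1, a Golgi mannosidase, and the transcriptional repressor gene ZEB2, both at 0.047. RDX, which links actin to the membrane, the kinase gene TAOK1 and AP1G1, an adaptor of vesicle coats, lay at 0.053. With 4 arrays such distances only describe these profiles.

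The other genes of the pathway came from a list of 54, of which 46 had a named probe and 37 were kept. Of the 37, 16 were higher and 8 lower in all 4 pairs (43.2% and 21.6%), against 32.6% and 28.7% of all genes kept. Their median log2 difference from both controls was 0.074, against 0.0084 over all genes. The control arrays differed as well: the list's median control RNA minus untreated was -0.093, against -0.0057 over all genes. A low control RNA array thus enters the difference from both controls. None passed limma in the main fits, against both controls or on group means, and none reached 1.5-fold in all 4 pairs. Against both controls, the smallest limma adjusted p of any gene kept was 0.0501, a value shared by genes outside the list, such as ABAT and ACTA2. Adjusted p values just above 0.05 therefore do not single out the genes below.

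Among the other FXYD genes, only FXYD1, phospholemman of heart and muscle, was kept. It gave 111 in 1# and 115 in 2#, against 127 for control RNA and 138 for untreated cells, with a log2 difference of -0.22 ± 0.090 (SE, limma adjusted p 0.160). FXYD3, FXYD4 and ATP1B4 stayed below the probe median. The related P-type pumps and small regulators had 9 genes kept. In all 4 pairs 2 were higher and 2 lower (22.2% each), against 32.6% and 28.7% of all genes kept. ATP2B4, a calcium pump of the plasma membrane, had signals of 1268 in 1# and 946 in 2#, against 526 for control RNA and 666 for untreated cells (limma adjusted p 0.0526). Its siRNA and control arrays did not overlap, as for 61.4% of all genes kept in either direction, and control RNA was the lowest. ATP2B1, another such calcium pump, had a log2 difference of 0.18. SLN, the calcium pump regulator sarcolipin, was dim at 90.4 in 1# and 81.2 in 2#, against 99.9 for control RNA and 93.5 for untreated cells, with 2# the lowest.

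The anchoring genes have proteins that tie the pump to the spectrin skeleton or assist at the membrane, and 8 of 8 were kept. In all 4 pairs 6 were higher and 2 lower (75% and 25%), against 32.6% and 28.7% of all genes kept. Their median difference was 0.39, against 0.0084 over all genes. ANK3, which encodes ankyrin-G, gave 1275 in 1# and 995 in 2#, against 799.6 for control RNA and 736 for untreated cells. The spectrin gene SPTBN1 gave 1623 in 1# and 1818 in 2#, against 1181 for control RNA and 1261 for untreated cells. SPTAN1, its alpha partner, gave 1964 in 1# and 2264 in 2#, against 1415 for control RNA and 1737 for untreated cells. None of these overlapped between siRNA and control arrays, as for 61.4% of all genes kept in either direction. ANK3, SPTBN1 and SPTAN1 were named for the largest differences of the subgroup, and their limma adjusted p values were 0.0644, 0.0527 and 0.0951. CAV1 and ANK2 were the ones lower.

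The kinases, hormone receptors and ubiquitin ligase had 12 of 13 genes kept. In all 4 pairs 6 were higher and 1 lower (50% and 8.33%), against 32.6% and 28.7% of all genes kept. WNK1, a kinase of ion transport, gave 1156 in 1# and 922 in 2#, against 708 for control RNA and 733 for untreated cells (limma adjusted p 0.0633). SGK1, a kinase induced by corticosteroids that raises pump activity, had a log2 difference of 0.21. STK39, a kinase below WNK1, gave 2354 in 1# and 1884 in 2#, against 1764 for control RNA and 1881 for untreated cells, so that 2# was level with untreated cells. Among the ion routes, 7 of 11 genes were kept, 2 higher and 2 lower in all 4 pairs (28.6% each). SLC5A3, the sodium-coupled myo-inositol transporter, gave 269 in 1# and 232 in 2#, against 164 for control RNA and 158 for untreated cells. Its limma adjusted p of 0.0501 was the smallest of the fit, which other genes shared. NFAT5, the transcription factor of the response to high salt, gave 698 in 1# and 677 in 2#, against 465 for control RNA and 525 for untreated cells (limma adjusted p 0.0534). SLC4A7, a sodium bicarbonate cotransporter, gave 209 in 1# and 229.5 in 2#, against 225 for control RNA and 293 for untreated cells, with overlap.

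**Figure D5:**
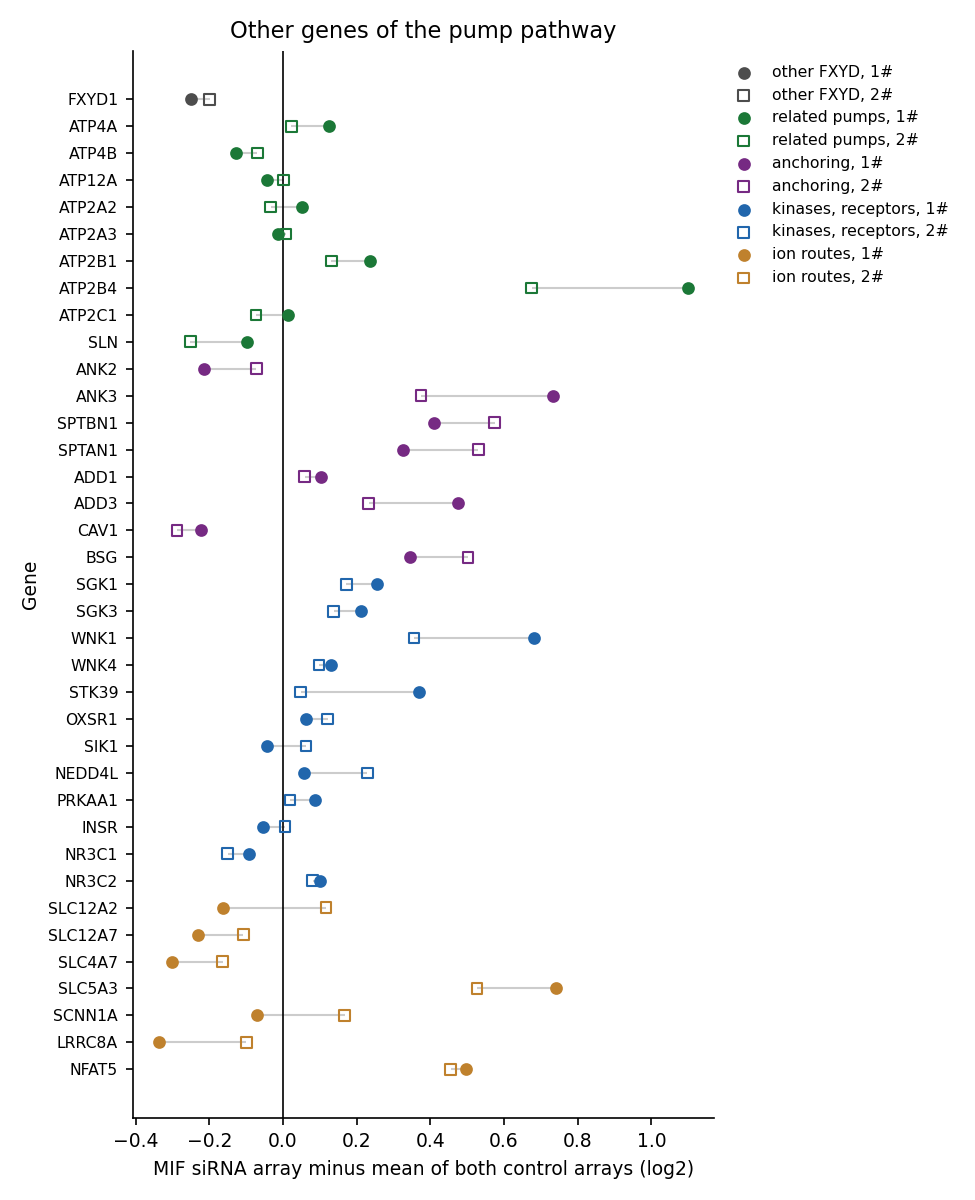
Log2 difference of 1# (filled circles) and 2# (open squares) from the mean of both control arrays for the 37 kept genes of the pathway list, coloured by role. ATP2B4 lies furthest right, 6 of 8 anchoring genes lie right of 0 in both arrays, and the hydrogen-potassium pump genes ATP4A, ATP4B and ATP12A lie near 0.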

How the data were processed

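Each deposited sample table lists a linear intensity for every probe, from BeadStudio per the submitters' processing notes (version not given in the sources used here). Background was not visibly subtracted, which compresses folds of dim genes, and the number of arrays limits precision. The deposited series value table, an alternative, holds intensities normalized between arrays by the authors, with the method not given in the sources used here. Its identifiers are shifted by 1 row relative to the sample tables from row 19832 on. Under the sample tables' names, 36 ribosomal protein probes after that row had a median signal of 5629, against 116 under the other, so rows were named by the sample tables. The name of the FXYD6 probe rests on this choice.

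The annotation gave 1 gene for 23687 of 48701 probes and several for 35, and did not list 24979. Symbols were updated through Entrez identifiers to GRCh38.p14. Intensities were quantile-normalized, floored at 32 (0 values below) and taken to log2. Each gene was its brightest probe, kept above the probe median. limma 3.58.1 (R 4.3.3, lmFit and eBayes, two-sided, Benjamini-Hochberg over all genes kept, threshold 0.05) compared MIF siRNA with both control arrays (2 residual degrees of freedom) and group means (1, the difference between 1# and 2#), with lone arrays assumed to vary like that pair. Steps were tested on simulated data.

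All 7 pump genes are named, the 5 nearest profiles of FXYD6 and ATP1B1, and up to 3 kept genes of each pathway subgroup by absolute difference. Also mentioned after their values were seen are the cell type markers COL1A1, COL3A1, NEFM, INA, EYA1, KRT18, KRT8, VIM, LHX1 and VWF. So are ABAT, ACTA2, CAV1, ANK2, the hydrogen-potassium pump genes and the genes below the filter. The members and lists were chosen with earlier results of these data known.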

Additional observations from a re-analysis of the deposited data

How the results depend on the processing

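No paired analysis was possible because the control conditions have 1 array each and share no replicate pairs with MIF siRNA. FXYD6 was higher in every siRNA-to-control pair present under the normalizations, sources, floors and probe summaries run and without either siRNA array. It was picked for this rise, so this is a description. With 1 probe and signals far above the floors, neither the floors nor the mean of all probes could alter it. Leaving out a siRNA array only drops pairs. The smallest pair difference of FXYD6 ranged from 1.17 to 2.08 when 1# or 2# was left out. The ATP1B1 value for control RNA minus untreated, -0.47, moved to -0.081 with the mean of all probes and reversed to 0.31 with the second probe, an alternative chosen after seeing the data. Under 4 settings that could alter single genes (1 common median, the series value table, the normexp correction and the mean of all probes), 4 of 56 differences from 1 control array moved by at least 1 SD of the siRNA pair and 4 changed sign, of ATP1B3, FXYD2 and FXYD5. ATP1B2, FXYD6 and FXYD7 have 1 probe each, so the mean of all probes could not alter them and their values there add nothing. The floors of 16 and 64 left all 7 genes as they were. The count of 0 genes called against both controls became 1581 with arrays set to 1 common median, 590 with no filter, 927 with a filter at percentile 75 of all probes, 1007 with an intensity trend in the variance, and 1542 to 4624 without 1 siRNA array. The smallest limma adjusted p over all genes was 0.0501 in the main fit, just above the threshold. It was 0.0350 with 1 common median, 0.0474 with no filter, 0.0390 with the percentile 75 filter and 0.0285 with the trend. The count of 0 thus depends on small shifts around 0.05. The cause of these shifts was not tested. With the trend, 76 genes were called against control RNA and 22 against untreated cells. The 157 genes of the 1.5-fold pair rule became 262 with 1 common median, 13 at 2-fold, and 178 to 1243 without 1 siRNA array. The 13 genes at least 1.5-fold apart between control RNA and untreated became 8 with the mean of all probes and 0 at 2-fold. Without 1 siRNA array the fits on group means have no residual degrees of freedom, so they give no value there. FXYD2, FXYD7, FXYD3, FXYD4 and ATP1B4 are limited by signal over background.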
